A study of Mus musculus with 6 samples.

Results

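The receptors through which myeloid cytokines act on blood progenitors were followed in Lineage- c-Kit+ Sca1+ (LSK) cells, a sorted fraction of mouse bone marrow rich in stem cells and early progenitors of blood. The genes were Csf1r, Csf2ra, Csf2rb, Csf2rb2, Csf3r, Il3ra, Il5ra, Il6ra, Il6st and Ifngr1, taken by symbol from probe sets that the platform annotation gives to 1 gene. Of these 10 genes, 8 had such a probe set, 1 each, among 30627 genes in all. Csf2rb and Csf2rb2 had none under their symbols and are not analysed here. Il5ra lay under the level treated as dim, so 7 of the 8 entered the test, among 19010 genes tested.

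The 3 knockout samples came from miR-21flox/flox:Mx1-Cre+ mice and the 3 control samples from miR-21flox/flox:Mx1-Cre- littermates. All mice of both groups carried the floxed alleles and received 250 µg of pIpC per injection for 7 injections, starting at 4 to 6 weeks of age, and were used 4 weeks later. The synthetic double-stranded RNA pIpC triggers an interferon response, and the Mx1 promoter that drives the Cre recombinase answers to interferon in blood cells and in other tissues. Only the knockout mice carried Cre, so effects of the transgene and of miR-21 loss cannot be told apart. The labels call the samples biological replicates and do not say how many mice each held, so the p-values measure the spread between these arrays. Values are log2 values after RMA, which corrects background, equalises the intensity distributions of the arrays and summarises probes into probe sets. In RNA from whole sorted populations, fewer cells of a type and less RNA per cell cannot be told apart.

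Array medians were 1.89 to 1.95. RMA brings the arrays to like distributions, so these medians do not show whether the samples differed in overall level. Correlations over all probe sets were 0.995 to 0.997 within groups and 0.987 to 0.991 between groups. A single probe set stands for both the microRNA locus and its host gene Vmp1, and it does not check the deletion. It stood at 5.68 ± 0.07 in the knockout and 5.63 ± 0.02 in control (SD, n = 3 each, exact two-sided permutation p = 0.4, where 0.1 is the smallest p that 3 arrays against 3 allow). Pdcd4, a known miR-21 target, rose by 0.38 (limma adjusted p = 0.00931). Among all genes tested, 19.1% were higher at an adjusted p under 0.05, so this 1 gene does not check the deletion either. Of the genes that define the sort, Kit was measured at 8.12, 8.19 and 8.14 in the knockout and 8.55, 8.68 and 8.59 in control, whereas Ly6a, which encodes Sca-1, had no probe set of its own in the annotation.

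The deleted microRNA is shown here to identify the genetic difference between the groups. Its main mature form, mmu-miR-21a-5p, lies at chr11:86584120-86584141 on the minus strand (RefSeq, GRCm38.p6). The capitals mark the seed, bases 2 to 8, through which a microRNA pairs with its targets.
mmu-miR-21a-5p: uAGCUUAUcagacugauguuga

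Cytokine receptors of this group signal in a few ways. Csf1r is itself a tyrosine kinase. The others have no enzyme activity, and their receptor complexes signal through JAK kinases bound to their signalling chains, which phosphorylate STAT transcription factors once the ligand brings the chains together. The alpha chains for GM-CSF, interleukin-3 and interleukin-5 bind their ligand and share the beta chain encoded by Csf2rb, and the mouse has a second beta chain, Csf2rb2, used by interleukin-3. Interleukin-6 binds Il6ra, which then recruits gp130, the signalling chain encoded by Il6st and shared by a whole family of cytokines.

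The receptor genes moved in both directions in the knockout. Csf1r, Il6st and Il3ra rose, by 1.59-fold, 1.47-fold and 1.26-fold. Csf3r and Ifngr1 fell, by 1.26-fold and 1.20-fold. For Il6ra and Csf2ra no difference passed the test. Thus 5 of the 7 genes tested passed limma at an adjusted p under 0.05, 3 higher and 2 lower, where 31.1% of all genes tested passed (19.1% higher and 12% lower). For the same 5 genes knockout and control arrays were fully separated, as they were for 47.9% of all genes tested. With a fold of at least 1.5 added, Csf1r alone passed, where 4.1% of all genes passed (1.76% higher and 2.34% lower).

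**Figure D1:**
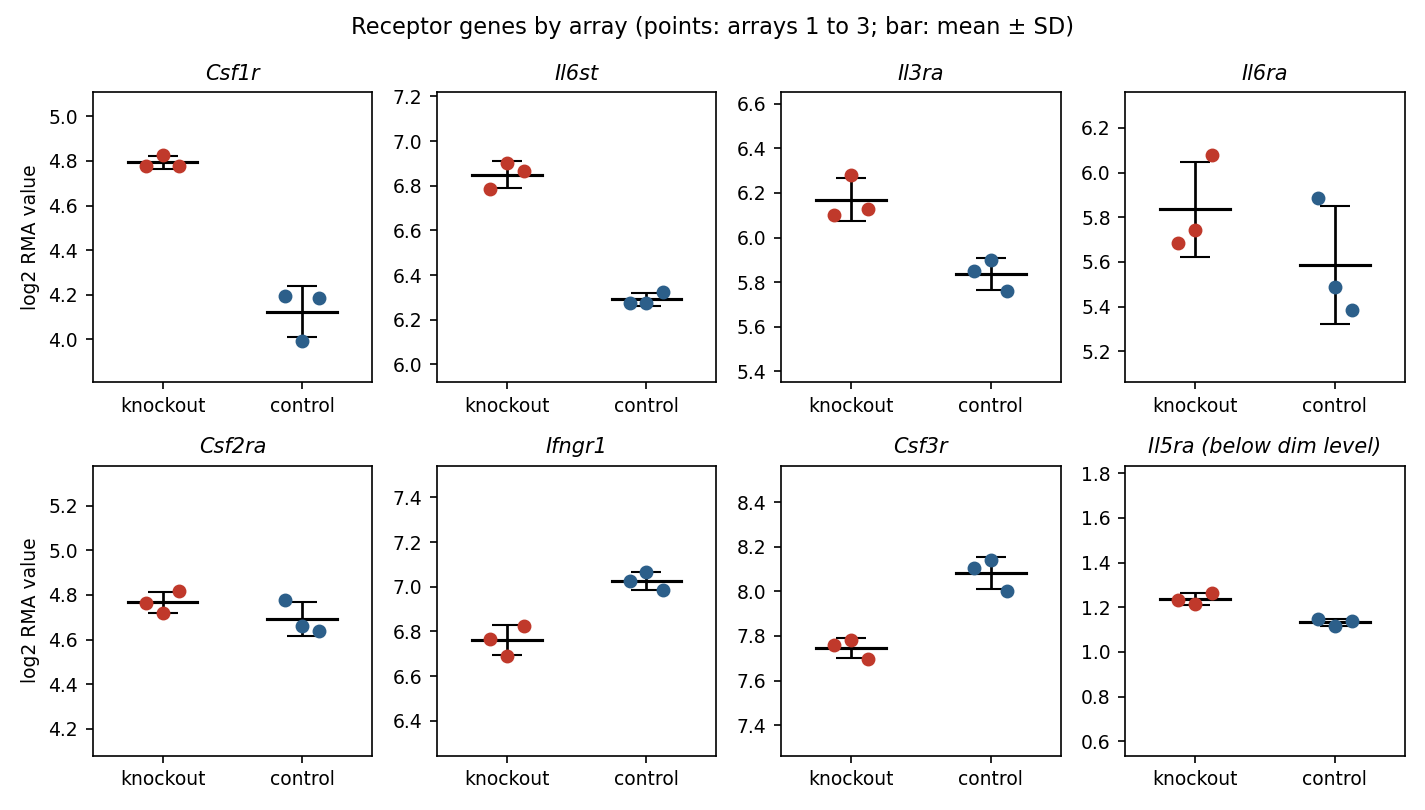
Log2 RMA values of the 8 measured receptor genes on each array, with knockout left of control in every panel; points are the 3 arrays of a group and the black bars give the mean ± SD. Every panel spans the same range of log2 units, so distances can be compared between genes but levels cannot. The groups are apart for Csf1r, Il6st, Il3ra, Ifngr1 and Csf3r and overlap for Il6ra and Csf2ra, and Il5ra is under the dim level of 1.92.

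Csf1r is the receptor for M-CSF and interleukin-34 and guides monocyte and macrophage formation. It gave 4.78, 4.83 and 4.78 on the knockout arrays and 4.19, 3.99 and 4.19 on the control arrays. Every knockout array was above every control array, and the control arrays were the more spread. The difference was 0.67 ± 0.07 (SE, limma adjusted p = 1.91e-04), in size above 97.0% of the genes tested, and it was the largest among the receptors.

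Il6st encodes gp130, without which interleukin-6 and its relatives give no signal. Its values were 6.78, 6.90 and 6.86 in the knockout and 6.27, 6.27 and 6.32 in control. The gap between the groups was several times the spread within either. The difference was 0.56 ± 0.06 (SE, limma adjusted p = 2.05e-04), in size above 95.4% of the genes tested.

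The chain that gp130 works with for interleukin-6 was less clear. Il6ra stood at 5.68, 5.74 and 6.08 in the knockout and 5.89, 5.49 and 5.39 in control. Control replicate 1 lay above 2 of the 3 knockout arrays, and this gene had the widest scatter of the receptors. The difference of 0.25 ± 0.14 (SE) had a limma adjusted p of 0.203 and a 95% interval of -0.07 to 0.56, and it was 0.40 without control replicate 1 (adjusted p = 0.0385), 0.15 without control replicate 3 (adjusted p = 0.478) and 0.13 without knockout replicate 3 (adjusted p = 0.515). Whether the chains of this receptor pair changed unequally was tested on the difference Il6ra minus Il6st within each array, which was lower by 0.31 in the knockout with overlapping groups (exact two-sided permutation p = 0.3). The other 4 pairs chosen for this test involve Csf2rb and had no value.

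Among the alpha chains of the interleukin-3 family, Il3ra rose and Csf2ra did not pass. Il3ra, which binds interleukin-3, a growth factor of basophils, mast cells and early myeloid progenitors, gave 6.10, 6.28 and 6.13 in the knockout and 5.85, 5.90 and 5.76 in control. The groups were separate, with knockout replicate 2 the highest array. The difference was 0.33 ± 0.07 (SE, limma adjusted p = 0.00747).

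Csf2ra, the chain for GM-CSF, gave 4.76, 4.72 and 4.82 in the knockout and 4.78, 4.66 and 4.64 in control. Its groups overlapped, with control replicate 1 among the knockout values. The difference of 0.07 ± 0.06 (SE, limma adjusted p = 0.395) had a 95% interval of -0.07 to 0.22.

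Il5ra, the chain for interleukin-5 found on eosinophils and their precursors, was at 1.23, 1.21 and 1.26 in the knockout and 1.15, 1.12 and 1.14 in control, all under the dim level of 1.92, the median of all probe sets. It was therefore not tested, and with no filter on dim genes the difference of 0.10 had a limma adjusted p of 0.204.

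Csf3r, the receptor for G-CSF, the main cytokine of neutrophil production, fell. It gave 7.76, 7.78 and 7.70 in the knockout and 8.10, 8.14 and 8.0 in control. All knockout arrays lay below all control arrays. The difference was -0.34 ± 0.06 (SE, limma adjusted p = 0.00414).

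Ifngr1, the chain that binds interferon-gamma, fell as well. It gave 6.77, 6.69 and 6.82 in the knockout and 7.03, 7.07 and 6.98 in control. The groups were again separate. The difference was -0.27 ± 0.06 (SE, limma adjusted p = 0.0110). Its partner Ifngr2 was at 5.52, 5.64 and 5.71 in the knockout and 5.58, 5.43 and 5.28 in control, a difference of 0.20 that did not pass (limma adjusted p = 0.119), and it was 0.27 without control replicate 1 (adjusted p = 0.0447) and 0.12 without control replicate 3 (adjusted p = 0.315).

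**Figure D2:**
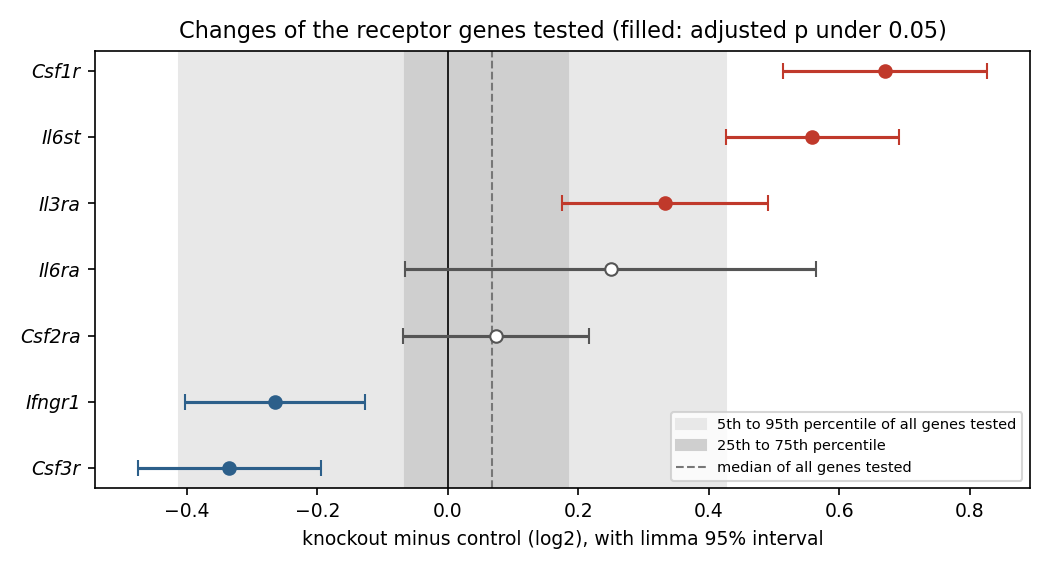
Difference between knockout and control (log2) for the 7 receptor genes tested, with the 95% interval from limma as bars; filled points passed at an adjusted p under 0.05. Grey bands give the 25th to 75th and the 5th to 95th percentile of all 19010 genes tested (-0.07 to 0.18 and -0.41 to 0.43). Csf1r and Il6st lie outside the wider band, and the other 5 receptors lie inside it.

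A RefSeq start of each receptor gene was searched for short motifs of factors known to act in myeloid cells. RefSeq promoters (GRCm38.p6), 250 bases before to 50 after the start, were used for 8 of the 10 genes, not for Csf1r and Csf2rb. The start used is the outermost 5′ end of the gene for 5 of the 8, but lies 1218 bases inside it for Csf3r, 583 for Il3ra and 43 for Csf2ra, so that other starts of these genes were not searched. The motifs were GAGGAA for PU.1, TTNCNNAA for C/EBP, TTCNNNGAA for STAT factors, AGATAA for GATA factors and the kappa-B motif for NF-kB, on both strands. Of all 32851 promoters in the table, 28.3% held the PU.1 letters, 40.7% the C/EBP letters, 8.30% the STAT letters, 11.2% the GATA letters and 1.63% the NF-kB letters. The 4 promoters below belong to receptor genes that passed the test, and capitals mark the matches.
Il6st, higher in the knockout, chr13:112463820-112464119, plus strand: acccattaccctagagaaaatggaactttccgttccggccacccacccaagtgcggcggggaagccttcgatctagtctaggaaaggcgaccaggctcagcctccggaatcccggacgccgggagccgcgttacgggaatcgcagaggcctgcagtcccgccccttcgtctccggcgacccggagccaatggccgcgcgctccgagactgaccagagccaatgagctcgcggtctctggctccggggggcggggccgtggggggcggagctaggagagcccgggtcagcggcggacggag
Il3ra, higher in the knockout, chr14:14346245-14346544, plus strand: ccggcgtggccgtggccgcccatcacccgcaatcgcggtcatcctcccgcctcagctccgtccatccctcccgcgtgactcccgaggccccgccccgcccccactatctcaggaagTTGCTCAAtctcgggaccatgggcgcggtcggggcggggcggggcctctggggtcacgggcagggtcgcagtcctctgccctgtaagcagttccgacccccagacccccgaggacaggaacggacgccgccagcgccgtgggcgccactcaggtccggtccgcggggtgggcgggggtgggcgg
Csf3r, lower in the knockout, chr4:126024409-126024708, plus strand: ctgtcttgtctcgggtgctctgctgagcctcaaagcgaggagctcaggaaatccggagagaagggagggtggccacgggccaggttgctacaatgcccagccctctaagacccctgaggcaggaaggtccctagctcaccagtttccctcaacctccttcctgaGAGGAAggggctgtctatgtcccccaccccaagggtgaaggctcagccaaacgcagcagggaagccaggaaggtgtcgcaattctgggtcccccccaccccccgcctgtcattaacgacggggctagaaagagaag
Ifngr1, lower in the knockout, chr10:19591699-19591998, plus strand: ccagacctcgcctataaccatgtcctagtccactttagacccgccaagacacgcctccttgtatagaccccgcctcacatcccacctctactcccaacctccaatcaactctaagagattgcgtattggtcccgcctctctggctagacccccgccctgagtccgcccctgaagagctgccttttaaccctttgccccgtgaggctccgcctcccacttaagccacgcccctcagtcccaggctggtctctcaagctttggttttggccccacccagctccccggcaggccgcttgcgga

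The 4 promoters did not share a motif. Il3ra held 1 C/EBP match, Csf3r held 1 PU.1 match, and Il6st and Ifngr1 held none of the 5 motifs. Of the receptor genes with no passing change, Csf2ra held 2 PU.1 matches and 1 C/EBP match. Il6ra held 1 PU.1 match, 1 GATA match and 3 C/EBP matches, of which 1 pair covers the same bases on opposite strands and 1 overlaps the PU.1 match. Il5ra held 1 PU.1 match and 1 GATA match, and Csf2rb2, which was not measured here, 2 PU.1 matches, 2 C/EBP matches and 1 STAT match. Matching letters describe these windows only and do not show that a factor binds there.

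Of the ligands of these receptors and of gp130, 14 of 15 had a probe set, 5 were dim and 9 were tested. At the adjusted threshold 0 rose (1 at an unadjusted p under 0.05, Ctf1) and 2 fell. Over all genes tested 19.1% rose and 12% fell at this threshold. The median change was 0.06 beside 0.07 over all genes tested. Clcf1, a ligand of the gp130 family, gave 4.37, 4.41 and 4.29 in the knockout and 4.62, 4.72 and 4.67 in control (difference -0.32, limma adjusted p = 0.00505). Lif, another cytokine that signals through gp130, differed by -0.19 (adjusted p = 0.0438), a call that was lost when any array other than control replicate 1 was left out. Ctf1, also of this family, differed by 0.35 (adjusted p = 0.0629), by 0.48 without control replicate 3, where it passed, and by 0.19 without control replicate 1. Csf1, the ligand of Csf1r, was at 0.10 (adjusted p = 0.341), and Il34, its other ligand, at 0.01 (adjusted p = 0.936). Of the chains that pair with the receptors, 3 of 7 were tested and 0 passed, also at an unadjusted p under 0.05, namely Ifngr2, Cntfr (0.11, adjusted p = 0.184) and Il27ra (-0.10, adjusted p = 0.278). Lifr and Osmr, the signalling partners of gp130 for Lif and oncostatin M, were dim, and Il11ra1 and Il11ra2 had no probe set under their symbols.

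In the JAK and STAT branch 14 of 16 genes were tested, with 0 higher (also 0 at an unadjusted p under 0.05), 3 lower and 11 not passing (median -0.02). Over all genes tested 19.1% were higher and 12% lower. Cish, a feedback inhibitor that STAT5 induces, gave 4.94, 4.77 and 4.78 in the knockout and 5.47, 5.32 and 5.35 in control. All its knockout arrays were lower, by 0.55 ± 0.07 (SE, limma adjusted p = 6.61e-04). Jak1, the kinase bound by gp130 and by Ifngr1, gave 7.42, 7.40 and 7.41 in the knockout and 7.81, 7.80 and 7.68 in control, and fell by 0.35 (adjusted p = 0.00271). Stat6, which acts after interleukin-4, fell by 0.27 (adjusted p = 0.0106). The values of the factors nearest to these receptors were -0.14 for Jak2 (adjusted p = 0.129), -0.14 for Stat3 (adjusted p = 0.198), 0.05 for Stat5a (adjusted p = 0.480), 0.07 for Stat5b (adjusted p = 0.381) and 0.11 for the feedback inhibitor Socs3 (adjusted p = 0.226).

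Of 22 tested adaptors, kinases and phosphatases that act directly at cytokine receptors, 3 rose, 8 fell and 11 did not pass (median -0.06). Among all genes tested 19.1% rose and 12% fell. Pik3ap1, an adaptor that brings in PI3-kinase, gave 5.59, 5.56 and 5.47 in the knockout and 6.66, 6.70 and 6.55 in control. It differed by -1.10 ± 0.06 (SE, limma adjusted p = 7.67e-06), a 2.14-fold fall. Cbl, the ubiquitin ligase that sends activated receptors such as Csf1r and Kit to degradation, gave 7.78, 7.54 and 7.62 in the knockout and 8.58, 8.51 and 8.07 in control, and fell by 0.74 (adjusted p = 0.00278). Its relative Cblb fell by 0.30 (adjusted p = 0.0180), although leaving out knockout replicate 1 or 3, or control replicate 2, ended that call. The inhibitory adaptor Dok2 differed by -0.47 (adjusted p = 0.00116), or by -0.18 as the mean of its probe sets. The tyrosine kinase Syk fell by 0.29 and the lipid phosphatase Inpp5d, a brake on PI3-kinase signalling, by 0.32. The kinase Fes rose by 0.31 (adjusted p = 0.00746), Fgr by 0.31 (adjusted p = 0.0109) and the PI3-kinase subunit Pik3cd by 0.23 (adjusted p = 0.0321), a call that ended when any single array other than control replicate 2 was left out.

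Factors that cleave, sort or degrade these receptors were all tested. Of the 9, 3 were higher, 0 lower (2 at an unadjusted p under 0.05) and 6 not past the threshold (median 0.10). The shares among all genes tested were 19.1% higher and 12% lower. Sorl1, a sorting receptor known to bind Il6ra, gave 5.09, 5.15 and 5.10 in the knockout and 4.83, 4.77 and 4.63 in control (difference 0.37, limma adjusted p = 0.00372). Rnf41, a ubiquitin ligase known to act on the interleukin-3 receptor beta chain, rose by 0.23 (adjusted p = 0.0169, lost without knockout replicate 3), and the sorting factor Hgs by 0.20 (adjusted p = 0.0321, lost after centring each array and when any array other than control replicate 1 was left out). Without knockout replicate 3 the count was 1. The proteases that shed Il6ra were at 0.10 for Adam17 (adjusted p = 0.326) and -0.22 for Adam10 (adjusted p = 0.0555).

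**Figure D3:**
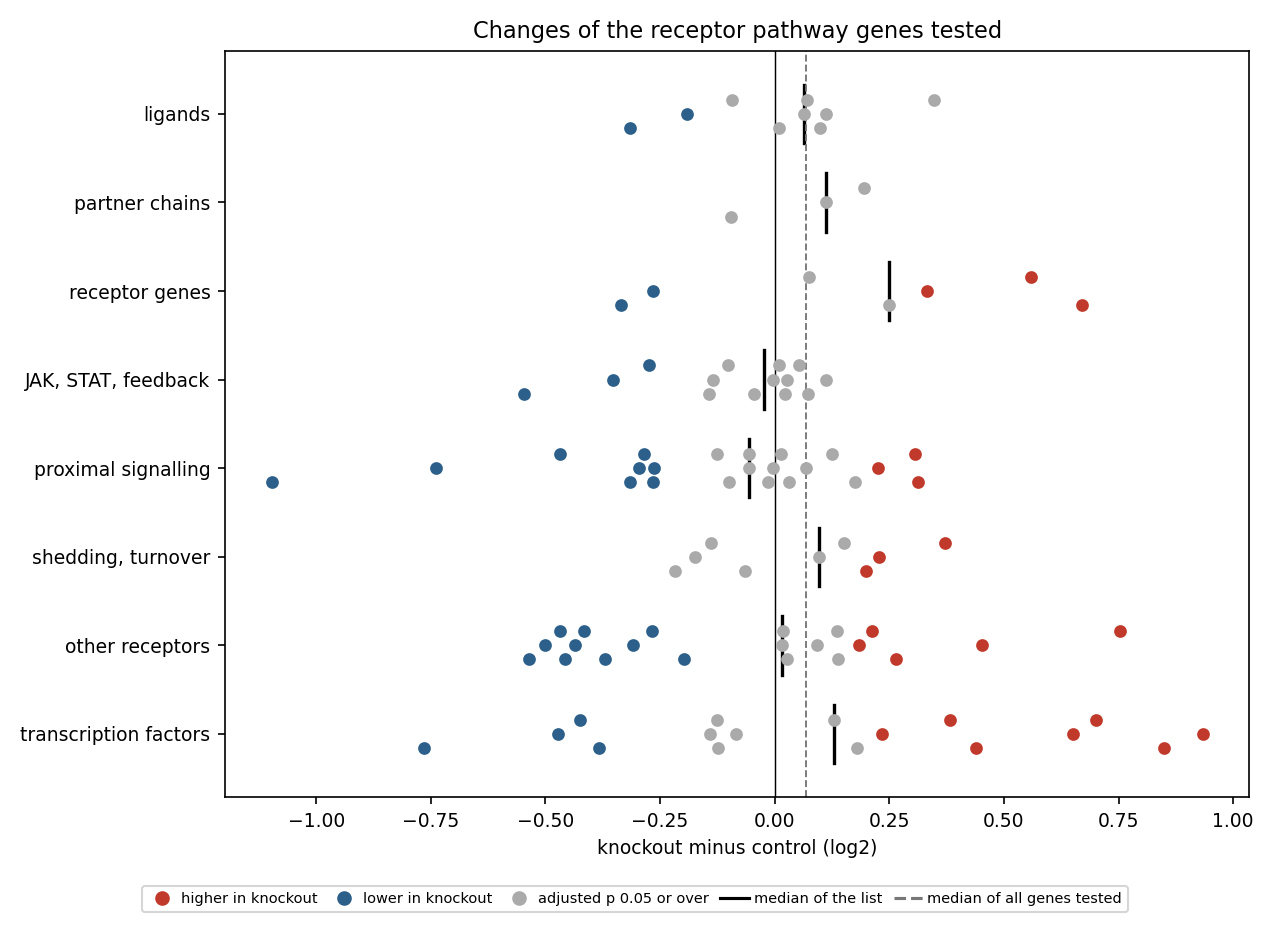
Difference between knockout and control (log2) of every gene tested in the receptor group and the 7 other lists, 1 point per gene and 1 line of points per list, with the median of each list as a black bar and that of all genes tested as a dashed line. No gene of the JAK and STAT branch passed the test as higher in the knockout, and Pik3ap1 is the lowest point at -1.10.

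Other cytokine and growth factor receptors of stem and progenitor cells also moved both ways. Of 21 tested, 5 rose, 10 fell and 6 did not pass (median 0.02), where 19.1% of all genes tested rose and 12% fell. Il10ra, which binds interleukin-10, gave 4.41, 4.31 and 4.39 in the knockout and 3.59, 3.62 and 3.64 in control, a rise of 0.75 ± 0.06 (SE, limma adjusted p = 2.89e-05). The TNF receptor Tnfrsf1a rose by 0.45 (adjusted p = 0.00113). Falls were seen for the interleukin-4 receptor Il4ra (-0.54, adjusted p = 0.00127), the interleukin-1 receptor Il1r1 (-0.50, adjusted p = 5.86e-04), Flt3 (-0.47, adjusted p = 7.44e-04), Kit (-0.46, adjusted p = 7.87e-04) and Il21r (-0.44, adjusted p = 0.00203). Flt3 and Kit are tyrosine kinase receptors of the same class as Csf1r, which rose.

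Transcription factors known to act at the receptor genes also moved both ways. Of 17 tested, 7 rose, 4 fell and 6 did not pass (median 0.13), where 19.1% of all genes tested rose and 12% fell. Cebpa, the factor that directs granulocyte and monocyte fate and drives Csf3r, gave 7.34, 7.32 and 7.47 in the knockout and 6.46, 6.65 and 6.47 in control. All knockout arrays were higher, by 0.85 ± 0.07 (SE, limma adjusted p = 6.41e-05), while Csf3r fell. Cebpe, needed for late granulocyte maturation, rose by 0.93 (adjusted p = 0.00131) and the monocyte and dendritic cell factor Irf8 by 0.70 (adjusted p = 6.39e-05). Gfi1b, a transcriptional repressor that acts within the erythroid and megakaryocytic branch, rose by 0.65 (adjusted p = 7.34e-05). Klf4, a factor of monocyte formation, fell by 0.77 (adjusted p = 2.95e-04), and Egr1 by 0.42 (adjusted p = 0.00414). Spi1, the gene of PU.1, had no probe set of its own in the annotation.

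Markers of the cells that carry these receptors differed between the groups as well. Of granule and neutrophil precursor genes, 16 of 16 rose (median 1.09), where 19.1% of all genes tested rose. Their summed level on the linear scale was 3134 to 3251 in the knockout and 1200 to 1294 in control. Sums on this scale, here and below, are weighted towards the brightest genes of a list. Here these were Mpo, at 10.50 in the knockout and 9.53 in control, and Elane, at 9.05 and 6.99 (log2). The primary granule genes Elane (2.06), Prtn3 (1.53) and Ctsg (1.71) and the progenitor marker Ms4a3 (3.20) were among the genes that rose. So were S100a8 (2.38) and genes of later neutrophil stages, namely Ngp (1.27), Lcn2 (1.13), Mmp8 (1.05), Ltf (1.02) and Cxcr2 (0.98). Ly6g, which defines mature neutrophils, was at 2.61 in the knockout and 2.23 in control, near the dim level. Csf3r, a receptor of the same lineage, moved the other way. The part of these cells in the receptor values was not tested.

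Of 11 tested monocyte and macrophage markers, 5 rose, 1 fell and 5 did not pass (median 0.27). For this list and those after it, the shares over all genes tested were 19.1% higher and 12% lower. The summed linear level of these markers was 734 to 769 in the knockout and 397 to 429.5 in control. It is weighted towards Ly6c2, the brightest of them, at 8.75 in the knockout and 6.98 in control (log2), and does not describe the list. The monocyte genes Ly6c2 (1.77), F13a1 (1.76) and Ccr2 (1.16) rose beside Csf1r and Irf8, and Itgam fell by 0.43. Ccr2 entered the test only through the knockout, at 2.99 there and 1.83 in control, under the dim level of 1.92. Among macrophage markers C1qc rose by 0.36 (limma adjusted p = 0.00836), and Adgre1 and Mertk were dim. C1qb (0.25), Vcam1 (0.22), C1qa (0.10) and Cd68 (-0.16) did not pass. The part of monocytes and macrophages in the Csf1r value was not tested. Of eosinophil markers 3 of 4 tested rose (median 0.38, summed linear level 62.1 to 69.2 in the knockout and 48.5 to 53.2 in control), with Siglecf at 0.40, Epx at 0.36 and Ccr3 dim, as was Il5ra. Of mast cell and basophil markers 5 of 7 tested rose and 1 fell (median 0.79, summed linear level 189 to 225 in the knockout and 102 to 109 in control), led by Mcpt8 at 2.07, and Ms4a2, Mcpt4 and Cma1 were dim. Fcer1a, 1 of those that rose, was at 3.07 in the knockout and 1.70 in control, so it too entered the test only through the knockout. The part of mast cells and basophils in the Il3ra value was not tested.

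Of Kit, on which the cells were sorted, and 4 genes known from stem and progenitor cells or from leukocytes at large (Flt3, Procr, Cd34 and Ptprc), 4 of 5 fell. Among all genes tested 12% fell. Cd34 was at -0.16 (adjusted p = 0.0501) and passed in 7 of the 15 other settings. The 5 genes had a median of -0.46, with a summed linear level of 1051 to 1065 in the knockout and 1322 to 1329 in control. The remaining marker lists had 0 higher and 1 lower of 4 for dendritic cells, 2 and 2 of 7 for B and plasma cells, 2 and 0 of 5 for T and NK cells, 0 and 0 of 2 for erythroblasts, 3 and 0 of 5 for megakaryocytes and 1 and 1 of 7 for endothelial and stromal cells. Beside these small counts, 19.1% of all genes tested were higher and 12% lower. The 1 dendritic cell marker that fell is Flt3, already counted with Kit above.

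**Figure D4:**
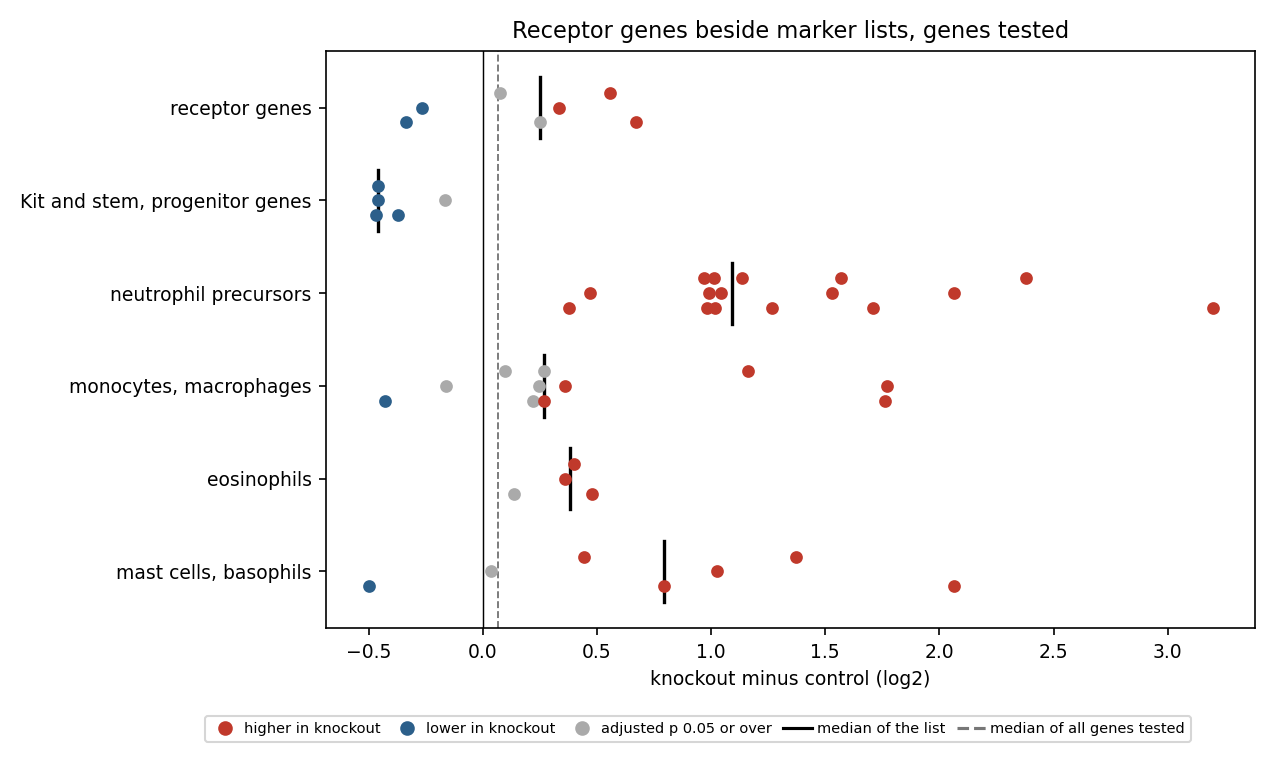
Difference between knockout and control (log2) of the receptor genes tested beside Kit with 4 stem, progenitor or leukocyte genes and the markers of 4 myeloid cell types, 1 point per gene, with the median of each list as a black bar and that of all genes tested as a dashed line. All 16 granule and neutrophil precursor genes are to the right of 0 and Kit and the 4 genes listed with it to the left, with receptor genes on both sides.

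The changes of the receptor genes held under the 15 other settings tried. Over these, Csf1r ranged from 0.60 to 0.71, Il6st from 0.53 to 0.59, Il3ra from 0.28 to 0.37, Ifngr1 from -0.30 to -0.23 and Csf3r from -0.42 to -0.31, and each of these 5 passed in every setting, with 0.0389 the highest adjusted p. Csf2ra passed in none (0.05 to 0.12), and Il6ra, at 0.13 to 0.40, passed in the 1 setting given above.

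**Figure D5:**
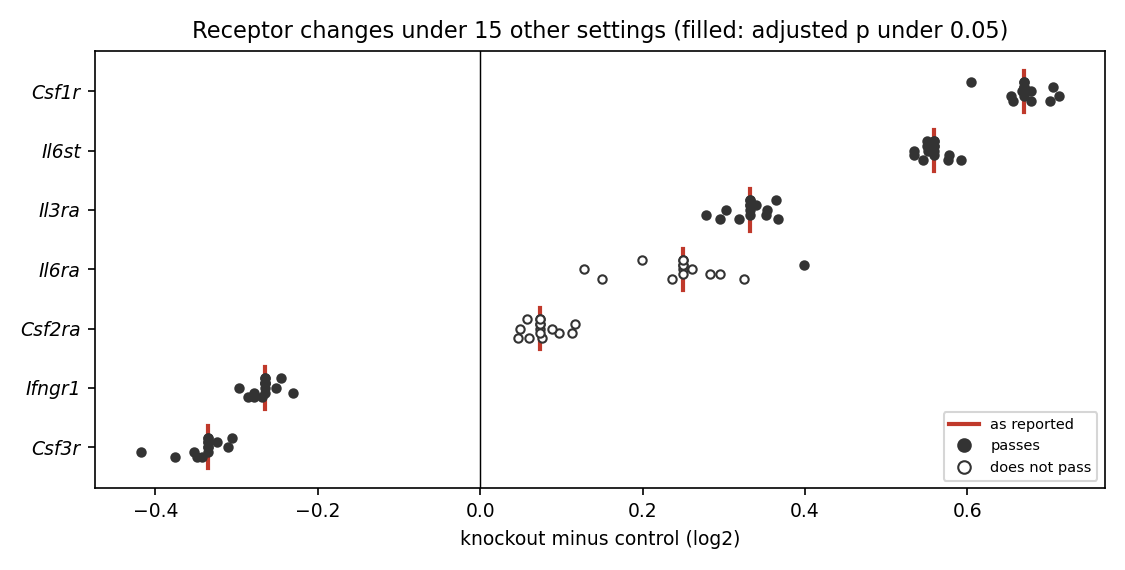
Difference between knockout and control (log2) of the 7 receptor genes tested, as reported (red bar) and under 15 other settings (points: other scaling, filters, models and leaving out each array); filled points have an adjusted p under 0.05. Points for Csf1r, Il6st, Il3ra, Ifngr1 and Csf3r are all filled, and Il6ra has the widest range and 1 filled point.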

How the data were processed

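Each of the 6 Affymetrix arrays has 1 column of log2 values in the table the authors deposited. The values were made with RMA, per the submitters' processing notes, whose version and genome build are not given in the sources used here. No source gives the log base, which was taken to be 2 since the highest value is 11.5. Arrays give no counts, so their number, 3 per group, limits the precision. Labelled cDNA was made from 250 ng of RNA, per the labels' protocols.

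Gene names are those of GEO's annotation for the platform, brought up to date through Entrez IDs (RefSeq, GRCm38.p6). Of 65956 probe sets 31080 had 1 gene, 1670 several and 33206 were not listed. The brightest probe set stood for a gene, and 11617 genes with a mean under 1.92, the median of all probe sets, were left out as dim. The test was limma's (version 3.58.1, R 4.3.3; two-sided, Benjamini-Hochberg over all genes tested), checked on simulated data. Differences are knockout minus control. Pathway and marker lists are described by counts, with no list test. The receptors and lists were chosen with earlier results of these data known. Genes named are all receptors and partner chains, a few always given, the 6 lowest p-values of each pathway list plus its extreme changes, and up to 4 of each marker list; others named are further list members, chosen after their values were seen.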

Additional observations from a re-analysis of the deposited data

Results flagged for a closer look

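Lifr, the chain that pairs with gp130 for leukaemia inhibitory factor, was left out of the comparison because its mean lay under the dim level of 1.92. On the arrays it gave 1.91, 1.82 and 2.04 in the knockout and 1.46, 1.54 and 1.58 in control, so that the groups did not overlap. With no filter on dim genes the difference was 0.40 ± 0.07 (SE) and passed limma with an adjusted p of 0.00551. It is given here because the signal in the knockout was above that in control in data the comparison did not use. Signals this low are near background and the size of the difference is uncertain.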

How the results depend on the processing

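Beside the fit reported, 15 others were run: each array centred on its median, a second quantile normalization, no or a stricter filter on dim genes, the mean of a gene's probe sets, array weights, an intensity trend and a robust setting in eBayes, the replicate block, and leaving out each array. The counts of receptor genes, 3 higher and 2 lower, were the same in all, except that 4 were higher without control replicate 1. Over all genes, 3630 were higher and 2277 lower, and leaving out 1 array gave 2322 (without knockout replicate 3) to 3093 higher and 1740 to 2022 lower. Samples with the same replicate number had deviations from their group means that correlated at 0.22, 0.33 and just under 0.1. Samples with unlike numbers were not compared in this way, so these values cannot decide whether the numbers mark pairs. With the replicate number as a block 4549 were higher and 2618 lower, it changed no call on a receptor gene, and ligands past the threshold numbered 3. The count of ligands past the threshold was 1 after a second quantile normalization and 1 with no filter on dim genes, and 1 to 2 when an array was left out (1 without knockout replicate 1, 2 or 3 or control replicate 2). The count of partner chains was 1 with no filter, through Lifr, and 0 to 1 when an array was left out, through Ifngr2. The count of shedding and turnover genes was 5 after a second quantile normalization and 1 to 4 when an array was left out. The other lists kept counts within 1.5 times, and the cause of these shifts was not tested. The 4 planned pairs with Csf2rb were not run, since no probe set is named for it. The difference Il6ra minus Il6st ran from -0.43 to -0.15 with each array left out. Values near the dim level are compressed towards background, which limits what can be said of Il5ra, Lifr and the 5 dim ligands.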

Other observations

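Values for the ligands of these receptors lay on both sides of the dim level of 1.92. This level is the median of all probe sets, so a value above it does not show that LSK cells express the gene. Csf1, the ligand of Csf1r, was above it, at 3.65 in the knockout and 3.55 in control, whereas 5 other ligands were under it. Interleukin-3 (Il3) was at 0.79 in the knockout and 0.87 in control. Interleukin-5 (Il5) was at 1.31 in the knockout and 1.17 in control. Interleukin-6 (Il6) was at 0.87 in the knockout and 0.85 in control, and interferon-gamma (Ifng) at 1.12 in the knockout and 1.13 in control, all means of 3 arrays. GM-CSF (Csf2) was under it too, at 1.39 to 1.64 over the 6 arrays. G-CSF (Csf3) was at 1.98 in the knockout and 2.08 in control, just above it. With no filter on dim genes, the adjusted p of Il3, Il5, Il6, Ifng and Csf2 in limma ran from 0.157 for Il5 to 0.976 for Ifng.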
